A study of Canis lupus familiaris with 51 samples.

Results

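Interferon-stimulated genes were followed across 51 canine cutaneous mast cell tumors (MCTs), each a case of its own in the labels, measured on 51 one-color arrays. The set named 9 genes, MX1, MX2, ISG15, OAS1, OAS2, IFIH1, IRF1, IRF7 and RSAD2, and its members were all probes that carry one of these names in the array annotation. Probes were found for 8 of the 9 genes, of 35597 gene names or sequence identifiers on the array, and they were 12 of 43603 probes. No probe was named IRF7, which was therefore not analysed here. RNA came from tissue of the tumor mass, so each level is a sum over all cells in it, and fewer cells of a type and less RNA per cell cannot be told apart.

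All samples were spontaneous tumors of pet dogs, with no healthy tissue beside them. The dogs were of several pure breeds or crossbred, of both sexes and 3 to 14 years old, where these were given. In the study, 18 reference tumors were classed by histological grade and mitotic index, 5 as undifferentiated and 13 as differentiated. The other 33 were given a class by a predictor built on 13 marker genes of the same arrays, none of them a member here, which put 7 in the undifferentiated and 26 in the differentiated class. In all there were 12 undifferentiated and 39 differentiated MCTs, and 30 tumors came from females and 19 from males. The class is the study's and not a deposited label, and that of the tumor LM0 was reached by elimination. Mast cell markers were present as labelled: 5 of the 10 listed had a probe (KIT, MS4A2, CMA1, HPGDS and FCER1A), and all 5 were well above background on most arrays. CPA3, HDC, TPSAB1, TPSB2 and GATA2 had none.

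Type I interferons signal through their receptor and the JAK-STAT pathway to a set of genes that share an interferon response element in their promoters, and products of these genes block steps of viral replication. MX1 and MX2 are dynamin-like GTPases that trap viral components, the oligoadenylate synthetases OAS1 and OAS2 switch on RNase L when they bind double-stranded RNA, ISG15 is a ubiquitin-like modifier, and RSAD2 (viperin) makes a chain-terminating nucleotide. IFIH1 (MDA5) senses long double-stranded RNA in the cytosol, whereas IRF1 is a transcription factor that answers strongly to interferon gamma as well.

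Probe sequences are shown where signal could be shared, for both OAS2 probes, which overlap, and for the dimmer probe of each of the paralogs MX1 and MX2. Each is 60 bases, written 5′ to 3′ in lower case, with the longest run that both probes of a pair have in common in capitals. The files place the OAS2 probes on dog chromosome 26, at 13464566 to 13464625 and 13464530 to 13464589, and the MX1 and MX2 probes on chromosome 31, at 38252743 to 38252802 and 38208639 to 38208698; no genome build is named for these coordinates. The annotation ties each of these probes to an mRNA record of its gene.
OAS2, A_11_P0000022833: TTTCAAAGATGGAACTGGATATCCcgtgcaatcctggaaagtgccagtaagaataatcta
OAS2, A_11_P050701: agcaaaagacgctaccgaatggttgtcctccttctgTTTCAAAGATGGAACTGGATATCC
MX1, A_11_P051206: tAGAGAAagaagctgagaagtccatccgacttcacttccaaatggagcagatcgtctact
MX2, A_11_P051521: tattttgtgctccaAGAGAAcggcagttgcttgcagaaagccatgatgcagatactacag
The OAS2 probes overlap by 24 bases and so read nearly the same stretch of the transcript. The MX1 and MX2 probes shown share a run of only 6 bases as written, and of 7 when either is read on the opposite strand. Over all 62 pairs of probes of different members, on either strand, the longest shared run was 9 bases.

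Of the genes well above background on every array, the GTPase MX1 swung most. For MX1 the brightest probe (A_11_P0000019855, chromosome 31, 38255773 to 38255832) had a log2 level of 7.41 in the lowest tumor, 9.52 at the median and 14.53 in the highest, and it was well above background on all 51 arrays. That is a 139-fold range, and the SD of 1.55 was larger than that of 96.2% of all probes. The other MX1 probe followed it closely, with r = 0.97 over 50 tumors. MX2 (A_11_P0000019854, chromosome 31, 38209332 to 38209391) ran from 6.88 through a median of 8.54 to 12.17, a 39-fold range, and its probes had r = 0.98 between them.

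The synthetases rose in the same tumors. OAS1 (A_11_P060006, chromosome 26, 13410963 to 13411842) had a lowest log2 level of 7.59, a median of 8.99 and a highest of 12.68, a 34.2-fold range over 49 tumors, since T91 and T135 were missing because of flagged spots. The dimmer OAS1 probe was well above background on 33 of 51 arrays and had r = 0.90 with the first. OAS2 (A_11_P0000022833) ran from 9.90 through 11.79 to 14.61, a 26.1-fold range, with T132 and LM0 missing. On its overlapping probe, spotted 5 times per array and measured in all 51 tumors, the range was 9.84 to 14.43.

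ISG15 and RSAD2 were dim. The ISG15 probe (A_11_P0000018515, chromosome 5, 59238039 to 59238098), designed on an expressed sequence tag, was well above background on 8 of 51 arrays, with log2 levels of 1.60 to 7.88 and a median of 2.02. RSAD2 (A_11_P086586, chromosome 17, 7473667 to 7473726) was well above background on 4 of 51 arrays, those of T56, T89, T135 and T57.1, where its log2 levels were 7.40, 6.36, 6.04 and 4.23. For both genes the levels of most tumors lie at the floor of the array and have no order.

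The sensor and the transcription factor moved least. IFIH1 (A_11_P0000031758, chromosome 36, 10682690 to 10682749) had log2 levels from 7.00 through 8.67 to 11.44, a 21.7-fold range. IRF1 (A_11_P0000026129, chromosome 11, 23781073 to 23781586) ran from 6.31 through 7.64 to 8.84, a 5.79-fold range, and its SD of 0.56 exceeded that of 57.5% of probes. Both were well above background on all 51 arrays.

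1 tumor, T56, had the highest level of 7 of the 8 genes. It stood 32.3-fold above the median tumor in MX1, 12.4-fold in MX2, 12.9-fold in OAS1, 7.06-fold in OAS2 and 6.84-fold in IFIH1. IRF1 was the exception: its highest tumor was T61, at 8.84, and T56 lay at 8.20. When each gene was scaled to its mean and SD over the tumors (z) and averaged over the 8 genes, T56 was at 3.13, T89 at 2.55, T135 at 1.73, T131 at 1.29 and T100 at 0.89, and the lowest tumor, T82, at -1.20. The 4 highest tumors were hybridized on 4 different slides and scanned on 4 different days. Over 22793 probes well above background on all arrays, T56 and T89 had r = 0.984 with each other, against 0.989 for the closest pairs. T56, T57.1 and T61 shared breed, sex, age, slide and scan day under different case names. All 5 highest were classed as differentiated MCTs, as were 39 of all 51 tumors; the next, T57.1, was an undifferentiated reference tumor at 0.85.

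**Figure D1:**
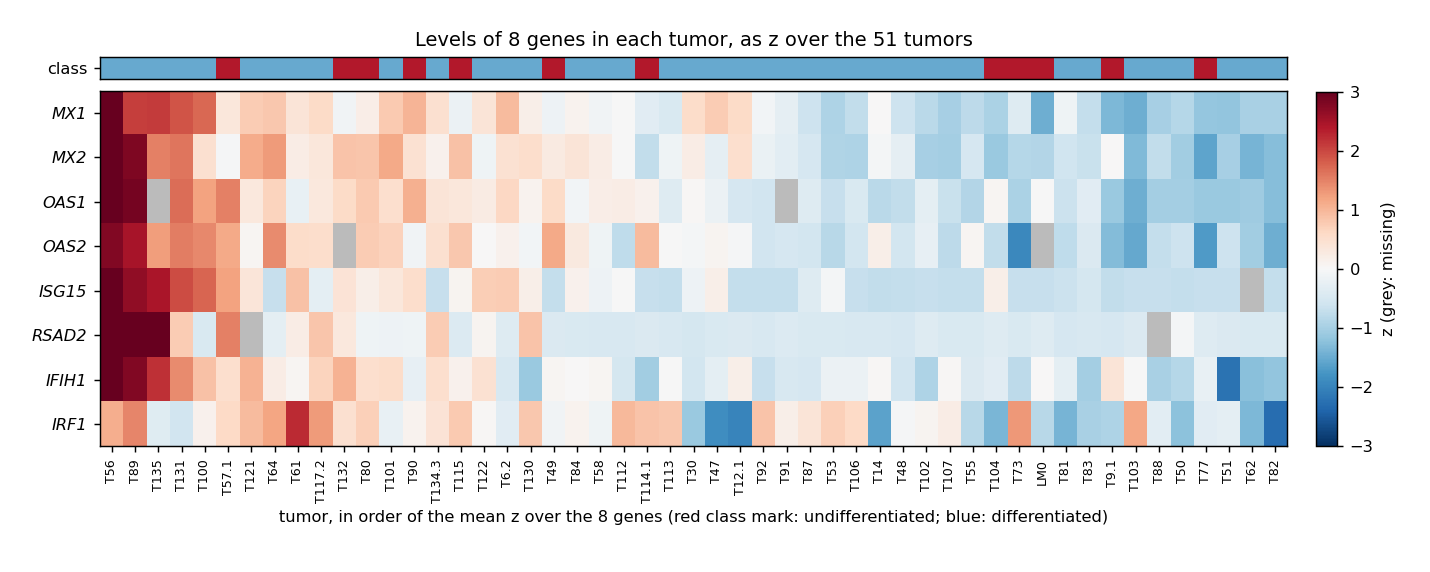
Levels of the 8 genes (rows) in each of the 51 tumors (columns), as z over the tumors, ordered by the mean z; the bar on top marks undifferentiated tumors in red and differentiated ones in blue, and grey cells are missing. T56 and T89, at one end, were high in all 8 genes, T135 and T131 ranked 37 and 38 in IRF1, and undifferentiated tumors are scattered along the axis.

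MX1, MX2, OAS1, OAS2 and IFIH1, all well above background on at least 1 probe in every tumor measured, rose and fell together from tumor to tumor. Over their 10 pairs, Pearson's r lay between 0.72 and 0.88 with a median of 0.84, and Spearman's rho between 0.58 and 0.85. In the 11 pairs of ISG15 or RSAD2 with each other or with these genes, r lay between 0.67 and 0.87 and rho between 0.42 and 0.71. Most values of both genes were not well above background, so these pairs lean on the few bright tumors. Without the 2 tumors farthest from the median of the first gene, their r lay between 0.46 and 0.76. Over all 21 pairs that do not hold IRF1, the median r was 0.79 and the median rho 0.63. For all 21, the 2-sided permutation p of r was 1e-05, the smallest that 100000 permutations can give, and the Benjamini-Hochberg value over the 28 pairs computed was 1.33e-05. The closest pairs were MX1 with MX2 (r = 0.88, rho = 0.85, 51 tumors) and OAS1 with OAS2 (r = 0.88, rho = 0.82, 47 tumors). MX1 and OAS1, on different chromosomes, had r = 0.86 and rho = 0.79 over 49 tumors.

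IRF1 followed the others loosely. Its 7 pairs had r between 0.23 and 0.37, and rho between 0.22 and 0.36. The permutation p of r was lowest for OAS1 (p = 0.00898, Benjamini-Hochberg 0.0114) and highest for MX1 (p = 0.102, Benjamini-Hochberg 0.102). By r, 5 of the 7 pairs had a Benjamini-Hochberg value under 0.05, and by rho 2 of the 7.

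**Figure D2:**
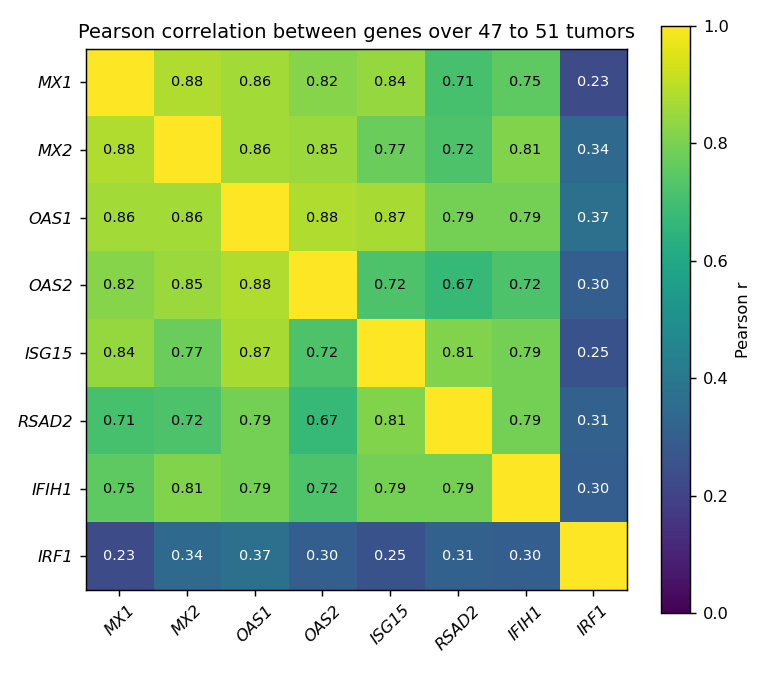
Pearson's r between the brightest probes of each pair of the 8 genes over 47 to 51 tumors, with the value printed in each cell and the color scale from 0 to 1. The pairs without IRF1 lie between 0.67 and 0.88, and the row and column of IRF1 between 0.23 and 0.37.

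The co-variation was partly carried by the highest tumors. Without the 2 tumors farthest from the median of the first gene of a pair, most often T56 and T89, r over the 21 pairs without IRF1 was between 0.46 and 0.84 with a median of 0.63, and over the 7 pairs with IRF1 between 0.11 and 0.31. Within the 39 differentiated tumors the 21 pairs had a median r of 0.84, and within the 12 undifferentiated ones 0.59, ranging from 0.12 for MX1 with IFIH1 to 0.84 for OAS1 with OAS2. The undifferentiated tumors held none of the 5 highest, and whether r differed between the classes was not tested. After centring within slide the median was 0.79, and after centring within scan day 0.81. The mean z had r = 0.15 with the share of spots well above background and r = 0.08 with the 75th percentile of the signal of each array.

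Undifferentiated and differentiated MCTs were then compared, the question being whether the interferon-stimulated genes were tied to the class. In limma's fit over the 51 tumors, 1023 of 43602 probes (2.35%) were called, which required a change of 2-fold or more with the adjusted p below 0.01, and 0 of the 12 member probes were. At an adjusted p under 0.05 with no minimum fold, 14.2% of all probes and 0 of 12 member probes passed. None of the 12 had an unadjusted p under 0.05 either, and an unpaired t-test on the same values called 0 of them. Of the 6 genes well above background on every array, OAS1 and IRF1 had a higher and MX1, MX2 and OAS2 a lower mean in undifferentiated tumors, and IFIH1 had equal means. Their median log2 difference was -0.06, against -0.01 over all probes.

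MX1 had the largest difference. Its log2 levels in the 5 undifferentiated reference tumors were 7.61 in T9.1, 10.23 in T57.1, 9.11 in T73, 11.28 in T90 and 7.41 in LM0. The 13 differentiated reference tumors ran from 8.16 through a median of 9.69 to 12.63. Among predicted tumors, the 7 undifferentiated ones lay between 7.89 and 9.99 (median 9.42) and the 26 differentiated ones between 7.43 and 14.53 (median 9.61). The undifferentiated tumors thus lay inside or just below the range of the differentiated ones, and all groups overlapped. The means were 9.11 ± 1.15 (SD, n = 12) and 9.87 ± 1.63 (SD, n = 39), a log2 difference of -0.76 with a 95% interval of -1.76 to 0.23 (limma adjusted p = 0.359). That interval still holds differences of up to 3.39-fold, so a fold of 2 in MX1 cannot be told from none with these tumors.

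Its paralog showed less. MX2 was at 8.62, 8.57, 7.67, 9.11 and 7.65 in T9.1, T57.1, T73, T90 and LM0, against 7.09 to 10.40 (median 8.60) in the differentiated reference tumors. The predicted groups had medians of 8.92 and 8.48. Over the 51 tumors the log2 difference was -0.23, with an interval of -0.95 to 0.49 that stays under 2-fold (limma adjusted p = 0.774). The other MX2 probe had -0.19, with an interval of -1.1 to 0.71 that reaches 2.14-fold.

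OAS1 had a higher mean in undifferentiated tumors, unlike MX1, MX2 and OAS2, although none of these differences passed the test. It lay at 7.95, 10.60, 8.11, 10.14 and 9.05 in the 5 undifferentiated reference tumors, in the same order of tumors, and at 8.00 to 10.77 (median 8.99) in the differentiated ones. Over the 51 tumors its log2 difference was 0.20 (interval -0.46 to 0.87, limma adjusted p = 0.782, 12 against 37 tumors). The dimmer probe had 0.50 (interval -0.23 to 1.23, limma adjusted p = 0.431). OAS2 had a log2 difference of -0.13 (interval -0.83 to 0.58, limma adjusted p = 0.883), with LM0 and T132, both undifferentiated, missing, and its other probe, with no missing tumor, -0.14.

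IFIH1 had a mean of 8.67 ± 0.44 (SD, n = 12) in the undifferentiated class. The differentiated class had 8.67 ± 0.84 (SD, n = 39), with an interval of -0.50 to 0.50 for the log2 difference. IRF1 differed by 0.08 (interval -0.29 to 0.45, limma adjusted p = 0.863). For these genes the interval leaves out a change of 2-fold in either direction.

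For ISG15, 1 of 12 undifferentiated and 7 of 39 differentiated tumors were well above background, and for RSAD2 1 and 3. No fold between classes is read for them, because most values of both groups were not well above background.

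**Figure D3:**
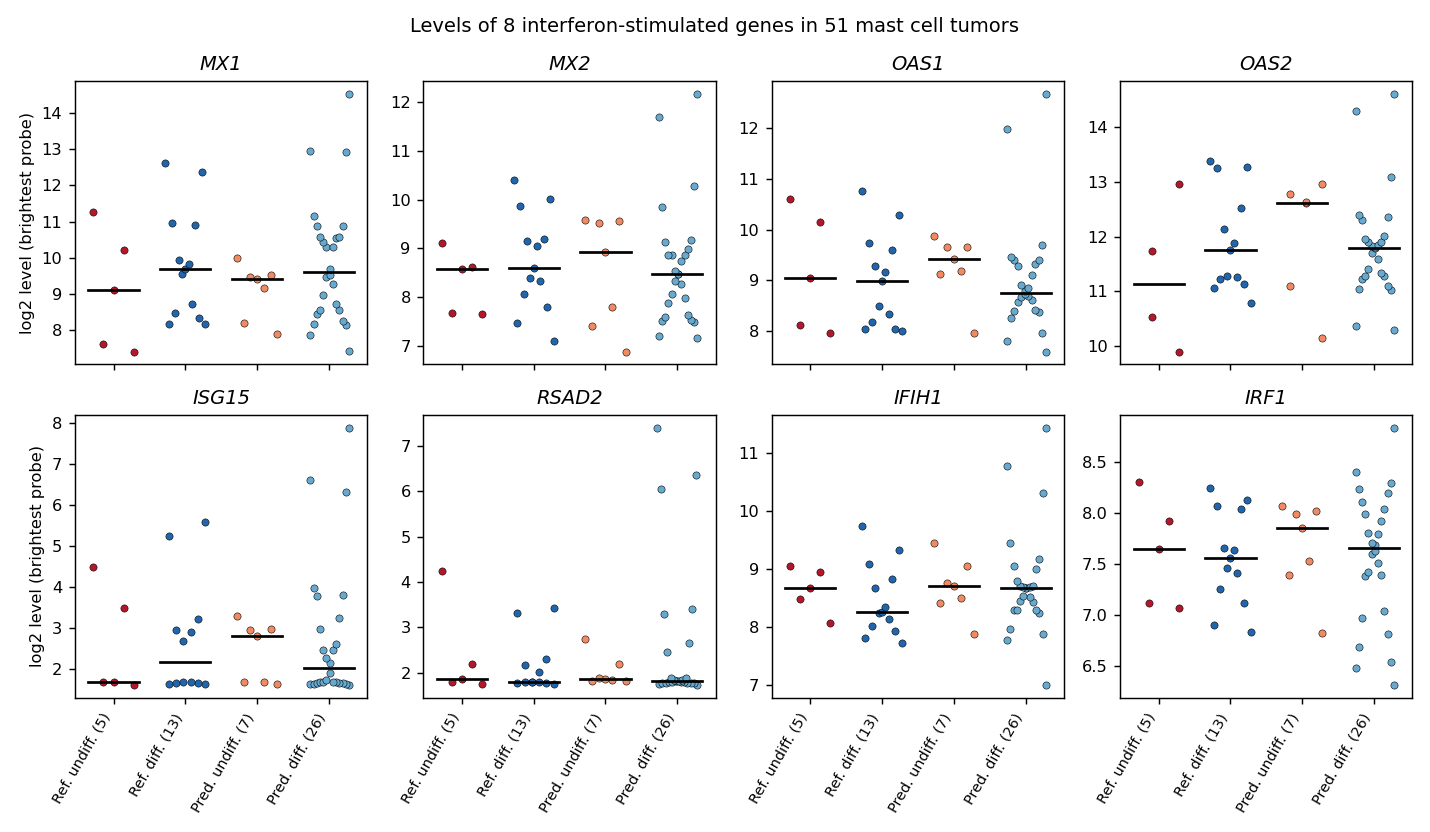
Log2 level of the brightest probe of each gene in 5 undifferentiated and 13 differentiated reference tumors and in 7 undifferentiated and 26 differentiated tumors of predicted class; each point is a tumor, the line is the group's median, and the vertical axes differ between panels. The groups overlap for every gene, and the highest points of all genes but IRF1 include T56 and T89, in the differentiated group of predicted class.

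The reference and the predicted tumors, which share no array, gave the same count when fitted apart. In the reference tumors 1.8% of probes were called and 0 of 12 member probes, and at an adjusted p under 0.05 7.69% and 0. In the predicted tumors the shares were 0.963% and 5.56%, again with 0 of 12 member probes. The log2 difference of MX1 was -0.70 (interval -2.34 to 0.94) in reference and -0.80 (interval -2.12 to 0.53) in predicted tumors. With slide as a fixed block the reference value was -0.07, and with scan day 0.53. Over the 51 tumors these blocks gave -0.92 and -0.70. OAS2 turned from -0.64 to 0.20, but the test of that change gave a limma adjusted p = 0.607, and over the 12 member probes the adjusted p of such a change was between 0.577 and 0.98.

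**Figure D4:**
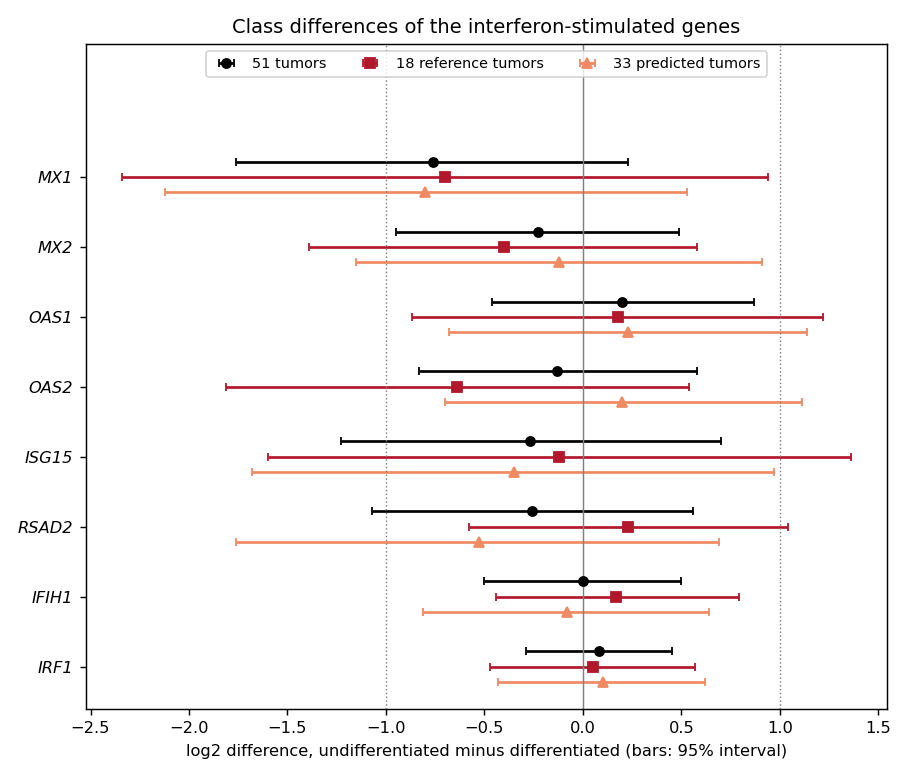
Log2 difference of each gene, undifferentiated minus differentiated, from limma's fit over the 51 tumors, the 18 reference tumors and the 33 tumors of predicted class, with 95% intervals; dotted lines mark a 2-fold change. Every interval crosses 0, and those of MX2, OAS1, OAS2, IFIH1 and IRF1 over the 51 tumors lie within the dotted lines.

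No member was called between sexes or breeds. Between 19 males and 30 females, limma called 0.0252% of probes (0.0642% at an adjusted p under 0.05) and 0 of 12 member probes under either rule. MX2 had the largest difference, with a median of 9.11 in males and 8.36 in females, a range of 7.16 to 10.40 against 6.88 to 12.17, and a log2 difference of 0.40 (interval -0.24 to 1.04, limma adjusted p = 0.83). Over 9 Boxers, 9 Labrador Retrievers and 14 crossbreds, limma's F-test called 0.0505% of probes and 0 of 12 member probes, 0 of them with an unadjusted p under 0.05. MX1 had medians of 9.69 in Boxers, 9.11 in Labrador Retrievers and 9.97 in crossbreds. The spread was widest in the crossbreds, from 7.43 to 14.53, against 8.16 to 10.89 in Boxers and 8.14 to 10.91 in Labrador Retrievers.

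Other genes of the interferon pathway were read from lists of ligands, receptors, sensors, transducers, targets and negative regulators, of which 87 genes had a probe. Of the interferon ligands 2 of 9 listed names were measured and 0 called. IFNG, the lymphocyte interferon, was well above background on 0 of 51 arrays, and IFNA7 had a log2 difference of -0.08 (limma adjusted p = 0.697). Of 4 measured receptor chains 0 were called, with a median log2 difference of 0.54. At an adjusted p under 0.05 with no minimum fold, 2 of them were higher in undifferentiated tumors. IFNAR1, a chain of the type I receptor, had 0.66 (SE 0.24, limma adjusted p = 0.0574). IL10RB, shared by type III interferon and interleukin receptors, had 0.59 (SE 0.13, limma adjusted p = 0.00144) and so missed only the fold. IFNAR1 had 0.04 in the reference and 1.12 in the predicted tumors (limma adjusted p of the change between them 0.31).

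Of 9 sensors and adaptors 0 were called, and 1 was higher in undifferentiated tumors at an adjusted p under 0.05 with no minimum fold. ZBP1, a sensor of Z-form nucleic acid, had the largest log2 difference, -0.66 (SE 0.40, limma adjusted p = 0.306), followed by TLR3, an endosomal receptor for double-stranded RNA, at -0.57 (limma adjusted p = 0.131). Of 13 transducers and factors 0 were called, and 1, of a smaller difference than those named here, was lower at an adjusted p under 0.05. IRF5 had -0.56 (limma adjusted p = 0.102) and STAT2, a transducer of the type I receptor, -0.43 (limma adjusted p = 0.411). In the reference tumors they had -1.28 and -1.38, and in the predicted ones -0.08 and 0.16 (limma adjusted p of the change 0.236 and 0.243). The 14 interferon gamma-stimulated genes held 0 calls, 1 gene lower at an adjusted p under 0.05 with no minimum fold, and a median of -0.16. Their largest differences were those of the immunoproteasome subunits PSMB8, at -0.61 (limma adjusted p = 0.0517), and PSMB9, at -0.50 (limma adjusted p = 0.204). Of the 8 measured genes listed as negative regulators 0 were called. PTPN6, a phosphatase, had -0.59 (limma adjusted p = 0.0693). UBA7, on that list although it is the activating enzyme of ISG15, had -0.46 (limma adjusted p = 0.0319, under the fold).

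The calls lay among the other type I interferon-stimulated genes, where 3 of 37 measured genes passed, 1 higher and 2 lower, which is 8.11% against 2.35% of all probes. Over the 87 genes of all lists the share was 3.45%. The median log2 difference of this list was -0.39, against -0.01 over all probes. At an adjusted p under 0.05 with no minimum fold, 8 of the 37 were lower and 1 higher in undifferentiated tumors, where 14.2% of all probes passed in either direction.

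IFI6, a small interferon-induced membrane protein, was lower in undifferentiated tumors. The 5 undifferentiated reference tumors were at 8.74 in T9.1, 8.77 in T57.1, 7.79 in T73, 9.08 in T90 and 8.89 in LM0, all under the 13 differentiated ones, which ran from 9.49 through 10.40 to 11.34. These tumors are part of the 51-tumor fit by which the gene was chosen. How many of all probes separate these groups is not given here. The predicted groups overlapped, at 8.57 to 9.92 (median 9.31) and 8.86 to 13.87 (median 10.67). Over the 51 tumors the log2 difference was -1.48 (interval -2.04 to -0.91, a 2.78-fold change, limma adjusted p = 0.000157).

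EPSTI1, an interferon-induced gene named for epithelial-stromal interaction, was lower as well. Its undifferentiated reference tumors were at 9.21, 10.94, 9.03, 10.59 and 8.77, in the same order, and the differentiated ones at 10.56 to 12.41 (median 11.14), so that T57.1 and T90 lay inside the range of the other class. The log2 difference over the 51 tumors was -1.11 (interval -1.62 to -0.60, limma adjusted p = 0.00151), and the other EPSTI1 probe, at -0.97, missed the fold. Without LM0 EPSTI1 was no longer called.

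PLSCR1, phospholipid scramblase 1, was higher in undifferentiated tumors. Its 5 undifferentiated reference tumors were at 9.52, 8.9, 10.17, 7.71 and 10.14, all above the 12 differentiated ones measured, which ran from 5.76 through 6.58 to 7.60. As for IFI6, these tumors are part of the fit that chose the gene, and the share of all probes without overlap is not given. The predicted groups overlapped, at 6.60 to 10.24 (median 7.92) and 5.58 to 10.59 (median 6.70). Over the 51 tumors, 3 differentiated ones being missing, the log2 difference was 1.83 (interval 0.99 to 2.68, a 3.56-fold change, limma adjusted p = 0.00164), and with age as a covariate it was no longer called (limma adjusted p = 0.0141). With normexp background correction the difference was 1.15. Fitted apart, the reference tumors gave -1.82 for IFI6, -1.58 for EPSTI1 and 2.74 for PLSCR1, all called, and the predicted tumors -1.23, -0.78 and 1.27, none of them called (limma adjusted p = 0.082, 0.19 and 0.246). The change between these sets had limma adjusted p-values of 0.662, 0.489 and 0.446. The mean z of the members had r = 0.38 with IFI6, 0.69 with EPSTI1 and 0.12 with PLSCR1. Other cells' markers also moved with the class. The neutrophil markers (5 of 7 measured, 2 called higher) had list means of 8.83 to 16.1 in undifferentiated and 7.3 to 14.2 in differentiated tumors. The dividing-cell markers (3 of 6 measured, 2 called higher) had 8.38 to 10.09 and 3.73 to 8.25, with no overlap. This separation was at least partly built into the classes and is no separate finding. Mitotic index helped to set the reference classes. Per the paper, most of the predictor's marker genes are regulated in mitosis or belong to the DNA damage checkpoint. CDC20, 1 of the 3 dividing-cell markers measured, is itself a marker gene of the predictor. The share of all probes that separate the classes is not given here. The part of neutrophils or of dividing cells in these 3 genes was not tested.

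**Figure D5:**
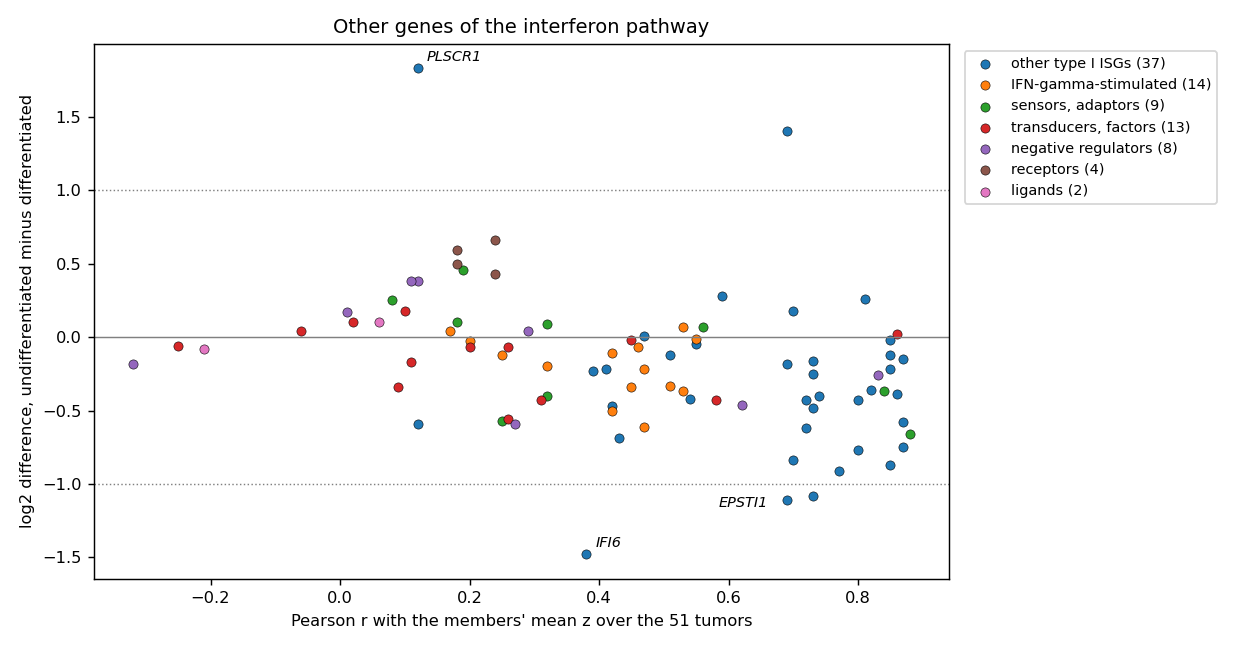
Each point is 1 of 87 measured genes of the interferon pathway, colored by list, with Pearson's r to the members' mean z over the 51 tumors on the horizontal axis and the log2 difference, undifferentiated minus differentiated, on the vertical axis; dotted lines mark a 2-fold change. Most type I interferon-stimulated genes lie at the right, with a median r of 0.72. Of the called genes, IFI6 (0.38) and PLSCR1 (0.12) lie to the left of the densest group, and EPSTI1 (0.69) lies near that median.

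The genes that tracked the members were sought without regard to class. Over 11539 gene names the median r with the members' mean z was 0.01 and the 99th percentile 0.47. Outside the members, 28 genes had r above 0.7, and 25 of them were on the pathway lists, 21 on that of the type I interferon-stimulated genes. The 37 genes of that list had a median r of 0.72. The interferon gamma-stimulated genes had a median r of 0.46 with 0 above 0.7, the receptors 0.21 and the ligands -0.07. These correlations are a description over the same 51 arrays.

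LGALS9, the lectin galectin-9, measured in 46 of 51 tumors, had the highest r, 0.91 (rho 0.92), and stayed at 0.90 without T56 and T89. ZBP1 followed at 0.88, then RTP4, a chaperone of receptor trafficking, DDX60, a helicase, and IFI44, each at 0.87, and then PARP14 at 0.86. HERC5, the ligase that attaches ISG15 to proteins, its relative HERC6, IFIT1, which binds viral RNA, and RNF213 had 0.85. DHX58, a regulator of the RIG-I and MDA5 sensors, had 0.84, USP18, which removes ISG15, 0.83, CMPK2, the chromosomal neighbor of RSAD2, 0.82, and OAS3 0.81. Without T56 and T89 these correlations were between 0.70 and 0.90, and centred within slide between 0.77 and 0.90. In the class comparison none of these genes was called by limma, and RNF213 alone was under an adjusted p of 0.05 (log2 difference -0.87, limma adjusted p = 0.0377).

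Taken singly, most members had each other or such genes as nearest neighbors. For MX1 they were RTP4 (r = 0.89), IFI44 (0.88) and MX2 (0.88), and for MX2 they were MX1 (0.88), IFIT1 (0.87) and IFI44 (0.86). OAS1 had OAS2 and LGALS9 at 0.88 and ISG15 at 0.87. OAS2 had OAS1 at 0.88, DDX60, dim on most arrays, at 0.87 and PARP14 at 0.85. ISG15 was nearest to OAS1 and IFI44 (0.87) and CMPK2 (0.85), RSAD2 to ISG15 (0.81), IFIH1 and HERC6 (0.79), and IFIH1 to HERC5 (0.84), PARP14 (0.83) and LGALS9 (0.82). The nearest genes of IRF1 were others, namely RAP2B (0.71, over 38 tumors), SNX20 (0.71) and PITPNM1 (0.70).

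The pathway lists were set against IRF1 and against the other 7 genes, as a description with no test. A mean over 7 genes and the single probe of IRF1 are unlike measures, so their r-values are not on equal terms. The type I interferon-stimulated genes had a median r of 0.72 with the mean z of the other 7 and of 0.24 with IRF1, and in 1 of 37 genes r was higher with IRF1. For the interferon gamma-stimulated genes the medians were 0.42 and 0.39, with r higher for IRF1 in 7 of 14 genes, and for the receptors 0.16 and 0.40, with all 4 higher for IRF1.

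Markers of the cell types a skin tumor can hold had lower correlations with the members. The mean z of the macrophage and dendritic cell markers (11 of 11 measured) had r = 0.38 with that of the members, falling to 0.25 without T56 and T89. T and NK cell markers (9 of 14 measured) had r = 0.26, fibroblast markers (6 of 6) 0.30, keratinocyte markers (4 of 6) -0.33, dividing-cell markers (3 of 6) -0.11, endothelial markers (6 of 6) 0.10, neutrophil markers (5 of 7) 0.05, B and plasma cell markers (5 of 8) 0.01 and mast cell markers (5 of 10) 0.08. No single marker was above 0.47, that of CD2. T56 and T89 ranked 7 and 4 of 51 in the mean level of the macrophage and dendritic cell markers and 2 and 4 in that of the fibroblast markers, while T135 and T131 ranked 34 and 31, and 28 and 26. The part of these cells in the levels of the members was not tested. Between the classes, the macrophage and dendritic cell markers had a median log2 difference of -0.47, with 1 of 11 called, higher in undifferentiated tumors, and overlapping list means of 8.75 to 10.41 in undifferentiated and 8.25 to 11.01 in differentiated tumors. The mast cell markers had a median of -0.47 and the B and plasma cell markers of -0.6, with 0 called in either list.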

How the data were processed

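Tumor RNA was hybridized to 51 one-color Agilent arrays of the dog genome. Per the study's methods, the authors extracted and background-subtracted the intensities with Agilent Feature Extraction. The authors deposited this processed intensity for each array, not normalized between arrays, and a table of intensities quantile-normalized over the 51 arrays, used here as an alternative. Its column medians, 118 to 177, differ because it lacks 2107 to 6290 spots per array.

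Here log2 values of the processed intensity were quantile-normalized across all 51 arrays. Control spots were left out, spots flagged as outliers in themselves or in their local background (718 to 3291 on an array) became missing values, and replicate spots were averaged. Between 59.4% and 74.8% of spots were well above background, with at most 3 saturated spots per array. Over 22793 probes well above background on all arrays, the closest pairs were T106 with T107 and T87 with T88 (r = 0.989 each), each alike in breed, sex, age and slide but with its own case name. They differed over 2-fold at 289 and 481 probes and were kept as separate samples, and whether a pair came from 1 dog is not known. T56 and T89, the tumors of highest mean z, had r = 0.984 and differed over 2-fold at 581 probes. They were alike in sex but not in age or slide. The number of arrays limits the precision, and p-values cover the spread between tumors. Neither the genome build of the probe coordinates nor the annotation release is given in the sources used here.

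Groups were compared with limma 3.58.1 in R 4.3.3 on all probes, with Benjamini-Hochberg adjustment. Calls needed a 2-fold change and an adjusted p below 0.01, or for the F-test over breeds that p alone. A gene was read from its brightest probe. Correlations were tested with 100000 permutations in NumPy 2.4.6. The fits were tested on simulated data.

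Named genes were the members, the 15 other genes closest to the mean of the members' z, the 3 nearest of each member, and in each pathway list the called genes, otherwise the 2 with the largest difference; 1 of the 15 is not reported here. Gene names are those of the array, with numbered loci renamed from RefSeq. The members and lists were chosen with earlier results of these data known. Alternatives covered normalization, background, filters, flags, slide, scan day, sex, age, test, probe and left-out tumors.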

Additional observations from a re-analysis of the deposited data

Results flagged for a closer look

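Within groups of 4 to 10 tumors, 32 combinations of gene and group were searched for a tumor that stood far apart from the rest, and 4 were found. Chance flags about 1 in 20 if values are normal and combinations independent. The genes here are correlated and most RSAD2 values lie at the floor, so the count cannot be set against that rate. RSAD2 stood apart in T57.1, at 4.23 among the 5 undifferentiated reference tumors, where the next was 2.20. It did so in T132, at 2.74 among the 7 undifferentiated tumors of predicted class, where the next was 2.20, and in T130, at 3.42 among the Boxers, where the next was 1.84. Of these 3 values T57.1 alone was well above background. OAS1 stood apart in T77, at 7.95 among the 7 undifferentiated tumors of predicted class, where the next was 9.12.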

How the results depend on the processing

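No alternative called any of the 12 member probes in any class, sex or breed comparison. Over the 51 tumors the log2 differences of the 8 genes kept their direction in all alternatives run, apart from IFIH1, whose value of 0.00 has none, and OAS2, at 0.00 with scan day as a fixed block, and their lowest adjusted p was 0.252. The fitted values of ISG15 and RSAD2 come mostly from signal not well above background and are no folds. Among the reference tumors, directions turned with the scale to the 75th percentile for IRF1 (-0.07) and ISG15 (0.00), with slide as a fixed block for ISG15 (0.02), OAS1 (0.00) and IFIH1 (-0.23), with scan day as a fixed block for MX1 (0.53), MX2 (0.19) and ISG15 (0.96), and with age for RSAD2 (-0.02). When each reference tumor was left out in turn, ISG15 ranged from -0.60 to 0.14, IRF1 from -0.12 to 0.19, OAS1 from -0.18 to 0.48 and RSAD2 from -0.24 to 0.39. Among tumors of predicted class, slide as a fixed block gave 0.44 for MX2, 0.04 for ISG15, 0.16 for IFIH1 and 0.20 for RSAD2, and scan day 0.09, 0.05, 0.08 and 0.05, while age moved IRF1 to 0.00. Between sexes, scaling turned IRF1 (-0.02), normexp turned ISG15 (-0.02) and RSAD2 (0.01), and RSAD2 also turned with class as a covariate (0.04) and slide as a random block (0.01). The cause was not tested, and each of these values was far from the threshold. The median r over the 28 pairs of members, 0.78, was 0.55 by Spearman's rho, 0.48 within the 12 undifferentiated tumors and, in an alternative chosen after seeing the data, 0.43 without the 5 tumors of highest mean z, which are fewer tumors with less spread. Leaving out T87 and T107, also chosen after seeing the data, gave 0.78. IFI6 was called over the 51 tumors under all 16 alternatives run. EPSTI1 was lost without LM0 (-0.99) and PLSCR1 with age as a covariate (1.60). Over all probes the calls (1023 in the 51, 783 in the reference and 420 in the predicted tumors) fell to 429, 410 and 203 with normexp, to 58 (reference) and 72 (predicted) with slide as a fixed block, and to 303 and 151 with scan day. They were 243 in the predicted tumors with age, 518 in the reference tumors without LM0, and 1991 and 1073 by the unadjusted t-test in reference and predicted tumors; without the minimum fold and at 0.05 they were 6210, 3353 and 2426. Normexp left 7 of 11 calls between sexes. Dim signal limits ISG15 and RSAD2.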
